A study of Rattus norvegicus with 3 samples.

Results

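Cadherins, protocadherins, Fat and Dachsous genes were described in cultured commissural neurons of the rat, the spinal neurons whose axons cross the ventral midline. The members were all entries of the deposited expression table whose symbol, read without regard to case, was Cdh followed by a number, began with Pcdh, was Fat1 to Fat4, or was Dchs1 or Dchs2. This gave 82 genes of 26353 table entries. Of these entries 5754 carry no symbol, so a family gene among them would be missed. Pcdh10, Pcdhac2, Pcdhgc3, Pcdhgc4 and Pcdhgc5 are not among the 82. Counts, ranks, sums and shares of a subfamily cover only the genes found by the rule. The study holds 1 group of 3 libraries of polyadenylated RNA, with no treated, mutant or control group; the cells were taken from the spinal cord of embryos at embryonic day 13 and kept 2 days in vitro, and the labels name neither a strain nor an agent. The libraries are called 1, 2 and 3 by their replicate numbers, and no label says whether they are separate cultures or separate animals. The p-values therefore cover the spread between these 3 samples alone, and that spread may be technical. Levels are in FPKM as computed by the authors, that is, sequenced fragments divided by transcript length and by each library's mapped fragments. Setting different genes side by side on this scale rests on the transcript lengths used, which are not stated. Earlier results of these data showed genes with very long transcripts lower in library 2. No length was measured here, so this was not tested, but ratios between genes of unlike length may depend on the library. The p-values of pairs do not cover an error in the transcript lengths behind FPKM.

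Cadherins are membrane proteins whose repeated extracellular domains bind calcium and bind cadherins on the neighbouring cell. Classical cadherins join the actin cytoskeleton through beta-catenin, p120-catenin and alpha-catenin, and the set of cadherins a neuron carries influences which neurons and axons it adheres to. Clustered protocadherins are encoded in the alpha, beta and gamma arrays, are known for giving single neurons distinct surface identities, and act in self-avoidance and neuronal survival. Fat and Dachsous proteins are giant cadherins that bind each other across cells and act in planar polarity and growth.

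Of the 82 genes, 63 exceeded 1 FPKM in a one-sided limma test, adjusted by Benjamini-Hochberg over all entries tested, and 19 did not. Of the 17611 entries tested, which are those above 0 in any library, 63.7% passed, and 42.6% did when the entries at 0 were counted too. The same shares are the background for each count by subfamily or list below. The median of the members' means was 2.90 FPKM, against 4.81 FPKM over all entries above 0 and 0.300 FPKM over the whole table. Of the members, 4 were listed at 0 in all libraries, 3 were above 0 in some libraries only, and 75 were above 0 in every library. The level of 13 members averaged at least 10 FPKM: Cdh2, Dchs1, Pcdhga12, Cdh13, Cdh4, Pcdh8, Pcdhgb7, Fat4, Cdh8, Cdh11, Fat1, Cdh24 and Pcdhga7. RNA was taken from whole cultures, where fewer cells of a type and less RNA per cell cannot be told apart.

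The labelled cell type was compared with its defining markers. All 4 neuronal genes and all 4 commissural axon genes lay above 1 FPKM, led by Tubb3 at 960.5 ± 70.2 FPKM (SD, n = 3, as for all values with an error here) and Robo3 at 104 ± 25.4. All 6 genes of radial glia and progenitors did as well, led by Fabp7 at 564 ± 106 FPKM, so the cell source of each cadherin is not known. Summed over its list, the level of the endothelial genes was 0.740 to 0.830 FPKM in the 3 libraries, that of the epithelial genes 0.490 to 0.590 and that of the motor neuron genes 0.020 to 0.050. The microglial genes summed to 7.01, 10.7 and 10.9 FPKM in libraries 1, 2 and 3, and the erythroid genes to 57.8, 31.7 and 13.1, most of it Hba1 at 33.2 ± 22.4.

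Of the 5 type I cadherins, the classical cadherins that prefer their own kind, 2 lay above 1 FPKM. Cdh2 (ENSRNOG00000015602), which encodes N-cadherin, the main cadherin of neural tissue, had 119.52, 119.99 and 116.51 FPKM in libraries 1, 2 and 3. It was the highest of all 82 members in every library, and its mean of 119 ± 1.89 FPKM was above that of 96.4% of the entries above 0. Cdh4, which encodes R-cadherin, had 20.66, 21.19 and 20.75 FPKM. The 3 libraries lay close together for both genes, and Cdh2 held 84.6% to 85.1% of the summed level of the type I genes in each library. Within a library Cdh2 exceeded Cdh4 by 5.66-fold (95% interval of the log2 ratio 2.26 to 2.74; 3 of 3 libraries; limma, Benjamini-Hochberg adjusted p = 1.83e-08). All folds are taken on the log2(FPKM + 0.1) scale, where those of low genes are understated.

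The other 3 type I genes did not pass. Cdh15, which encodes M-cadherin of muscle, had 0.170 ± 0.010 FPKM, and Cdh3, which encodes P-cadherin, had 0.143 ± 0.0404. Cdh1, which encodes E-cadherin of epithelia, was listed at 0.03 FPKM in each library. Beside Cdh1 and Cdh3, limma called 0 of the 5 epithelial genes, and 0 at an unadjusted p under 0.05; Epcam, the highest, had 0.50 ± 0.080 FPKM, and Krt18 was listed at 0.

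Type II cadherins form a larger group of classical cadherins with overlapping binding preferences, several of which mark particular neuron pools. Of the 13 genes, 8 (61.5%) lay above 1 FPKM: Cdh8, Cdh11, Cdh24, Cdh6, Cdh7, Cdh22, Cdh10 and Cdh20. This share was near the 63.7% of all entries tested. Cdh8 had 14.17, 16.76 and 14.37 FPKM, and Cdh11 had 14.43, 15.51 and 14.31. These values overlapped, and no difference between Cdh8 and Cdh11 was called (log2 ratio 0.03 with a 95% interval of -0.21 to 0.27; limma, Benjamini-Hochberg adjusted p = 0.791). Cdh8 is known from particular neuron types of brain and spinal cord. Cdh11 is known from mesenchyme as well as from neural tissue, and beside it 1 of the 7 fibroblast and mesenchyme genes passed, with a summed level of 3.56 to 4.44 FPKM for the list. Cdh24 had 12.70, 11.11 and 14.81 FPKM; it was below both Cdh8 and Cdh11 in libraries 1 and 2 and above both in library 3. Unlike type I, where a single gene led, no type II gene held more than 25.8% of the summed level in any library.

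Below these came a step. Cdh24 exceeded Cdh6 by 2.26-fold in 3 of 3 libraries (limma, Benjamini-Hochberg adjusted p = 5.12e-06), and Cdh6, known from kidney and from early neural crest, had 5.62 ± 0.396 FPKM. Cdh7, which in the chick marks groups of spinal motor neurons together with Cdh20, averaged 4.79 ± 0.480 FPKM, with 4.31, 5.27 and 4.80 in libraries 1, 2 and 3, and Cdh22, known from pituitary and brain, averaged 4.01 ± 0.200. Cdh6, Cdh7 and Cdh22 form a run in which neighbours were not called different, with an adjusted p of 0.0969 for Cdh6 over Cdh7 and 0.0520 for Cdh7 over Cdh22 in limma's test. The ends of the run did differ, Cdh6 over Cdh22 in 3 of 3 libraries (limma, adjusted p = 0.00295). Cdh6 over Cdh7 became a call without library 2 (limma, adjusted p = 0.0188) and among pairs that both averaged at least 1 FPKM (0.0397). Cdh7 over Cdh22 became a call among those pairs (limma, adjusted p = 0.0258), with a pseudocount of 1 (0.0233) and with the plain prior (0.0498). Fits with a library left out gave p-values on another scale than the main fit, so their calls are not directly comparable. Cdh22 exceeded Cdh10 (2.97 ± 0.252 FPKM) by 1.34-fold (limma, adjusted p = 0.00555), and Cdh10 exceeded Cdh20 (1.32 ± 0.130) by 2.17-fold (limma, adjusted p = 5.88e-06), each in 3 of 3 libraries. Leaving out library 2 ended the call for Cdh20 at 1 FPKM (limma, Benjamini-Hochberg adjusted p = 0.0556).

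The type II genes that did not pass fall at and below the 1 FPKM line. Cdh9 had 1.06, 0.96 and 1.02 FPKM (limma, Benjamini-Hochberg adjusted p = 0.687), so it lay on the line. Cdh12 had 1.07, 0.66 and 0.76 FPKM and Cdh18 had 0.54, 0.68 and 0.38 FPKM. Cdh12 was higher than Cdh18 in 2 of 3 libraries, with a log2 ratio of 0.56 (interval 0.14 to 0.98; limma, Benjamini-Hochberg adjusted p = 0.0169), and the call, though not the direction, was lost when library 3 was left out (log2 ratio 0.42; limma, adjusted p = 0.246) and with a pseudocount of 0.01 (log2 ratio 0.64; limma, adjusted p = 0.0597). Cdh5, which encodes VE-cadherin of the endothelium, had 0.020 ± 0.010 FPKM, and beside it limma called 0 of the 6 endothelial genes, and 0 at an unadjusted p under 0.05; the highest, Esam, had 0.333 ± 0.0757. Cdh19, known from Schwann cell precursors, was listed at 0, 0.01 and 0 FPKM. Sox10, a defining gene of neural crest and Schwann cells, had 0.010 ± 0.0173 FPKM.

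**Figure D1:**
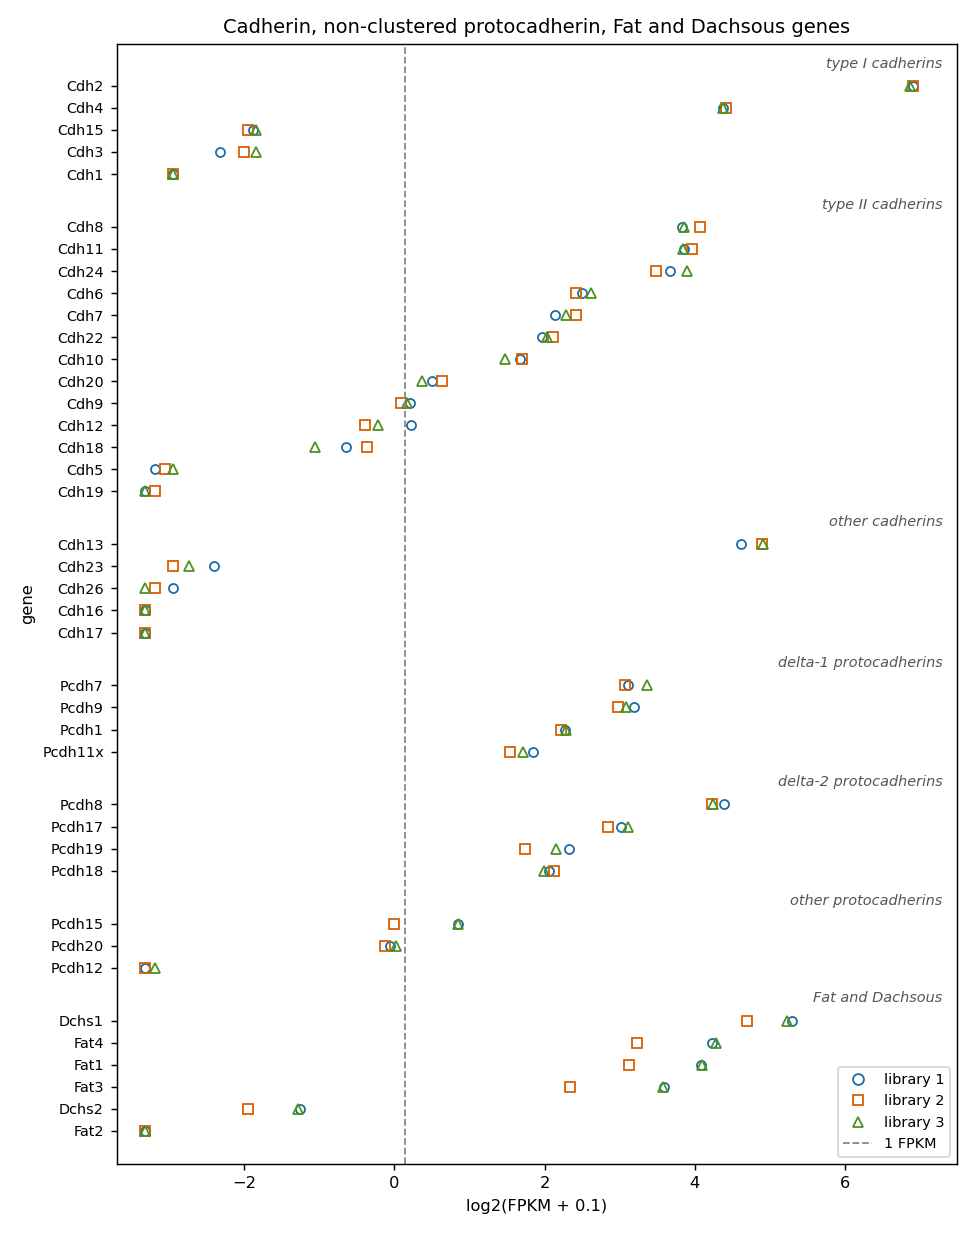
Level of each gene outside the clustered arrays, as log2(FPKM + 0.1), with a symbol for each of the 3 libraries and genes ordered by mean within each subfamily. Cdh2 lies furthest right with 116.51 to 119.99 FPKM, and in Fat1, Fat3, Fat4 and Dchs1 the square of library 2 stands left of the other symbols.

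Of the 5 cadherins outside types I and II, 1 lay above 1 FPKM. Cdh13 encodes T-cadherin, which is held in the membrane by a lipid anchor and has no cytoplasmic tail. It had 24.33, 29.61 and 29.89 FPKM, lowest in library 1, and a mean of 27.9 ± 3.13. Cdh23, a cadherin of the tip links of hair cells, had 0.0567 ± 0.0306 FPKM and Cdh26 had 0.0133 ± 0.0153. Cdh16 and Cdh17, known from kidney and from liver and intestine, were listed at 0 in all libraries.

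Pairs of genes within a subfamily were compared across the board. Of the 98 pairs within type I, type II, delta-1, delta-2 and the Fat and Dachsous group in which both genes were above 0 in every library, 88 (89.8%) were called different by limma, two-sided and adjusted by Benjamini-Hochberg over the 98. With a margin of 1.5-fold, 78 were, and among neighbours the calls of Cdh22 over Cdh10, Cdh20 over Cdh9, Cdh12 over Cdh18, Pcdh1 over Pcdh11x and Fat1 over Fat3 were lost. The pairs share genes and are not independent. No such share was computed for pairs of other table genes, so 89.8% is not shown to be a trait of these families. Of the 25 pairs of neighbours in the order of levels, 16 differed and 9 did not; the order was taken from the same values. Among the 16, the call of Cdh20 over Cdh9 was lost whichever library was left out (limma, adjusted p = 0.0528, 0.0959 and 0.0505 without libraries 1, 2 and 3), and that of Cdh3 over Cdh1 with a pseudocount of 1 (limma, adjusted p = 0.0674). The pairs that did not pass include Fat4 and Fat1, Pcdh7 and Pcdh9, and Pcdh19 and Pcdh18.

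**Figure D2:**
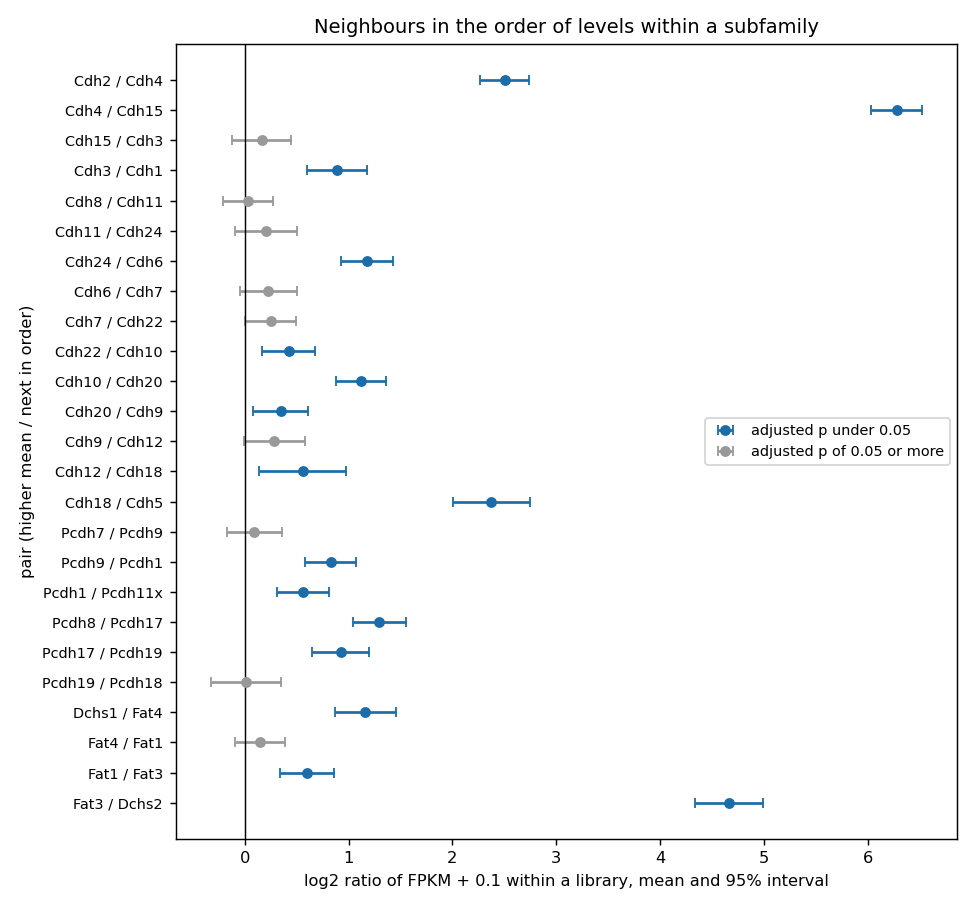
Log2 ratio of FPKM + 0.1 within a library for each pair of neighbours in the order of levels (points, mean of 3 libraries; bars, 95% interval from limma), with the higher gene on top of the ratio. The ratio of Cdh4 over Cdh15 is the highest at 6.28, and the 9 grey pairs did not pass the adjusted threshold.

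Delta protocadherins are single genes outside the clusters, with roles in cell sorting, axon growth and synapse formation. All 4 delta-1 genes lay above 1 FPKM. Pcdh7 had 8.55, 8.31 and 10.16 FPKM and Pcdh9 had 9.08, 7.80 and 8.40, overlapping values with no difference called (limma, Benjamini-Hochberg adjusted p = 0.460). Pcdh1 had 4.69 ± 0.114 FPKM and the X-linked Pcdh11x 3.16 ± 0.350. Pcdh9 exceeded Pcdh1 by 1.78-fold and Pcdh1 exceeded Pcdh11x by 1.47-fold, each in 3 of 3 libraries (limma, Benjamini-Hochberg adjusted p = 5.74e-05 and 0.00103).

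All 4 delta-2 genes found by the rule also passed. Pcdh8, whose product arcadlin is known from activity-dependent uptake of N-cadherin, had 20.91, 18.61 and 18.83 FPKM. Among the members it was the highest protocadherin outside the clusters. It held 52.9% to 56.1% of the summed delta-2 level in each library and exceeded Pcdh17 (7.88 ± 0.741 FPKM) by 2.45-fold (limma, Benjamini-Hochberg adjusted p = 3.03e-06, 3 of 3 libraries). Pcdh17 is known for a part in collective axon extension. Pcdh19, the gene of an X-linked epilepsy, had 4.91, 3.23 and 4.33 FPKM, lowest in library 2, and Pcdh18 had 4.06, 4.27 and 3.89. No difference between Pcdh19 and Pcdh18 was called (log2 ratio 0.01 with a 95% interval of -0.33 to 0.34; limma, Benjamini-Hochberg adjusted p = 0.952).

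Of the 3 protocadherins outside these groups, Pcdh15, the partner of Cdh23 in the tip links of hair cells, had 1.70, 0.90 and 1.70 FPKM. It passed at 1 FPKM by a small margin (limma, Benjamini-Hochberg adjusted p = 0.0440). Pcdh15 failed without library 1 (limma, adjusted p = 0.104) and without library 3 (limma, adjusted p = 0.131). Pcdh20 had 0.867 ± 0.0503 FPKM, and Pcdh12, known from the endothelium, was listed at 0, 0 and 0.01.

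The clustered protocadherins share architecture. Each variable first exon of the arrays has its own promoter, and most of these promoters carry a short conserved element, with CGCT at its core, near which the factor CTCF binds. In the alpha and gamma arrays the variable exons are spliced to shared constant exons, whereas beta genes are single exons. The promoter element is shown because it is a regulatory sequence known from most promoters of the arrays. In the alpha array only 1 of 10 members had a RefSeq promoter here, and that array was not examined. RefSeq promoters of assembly GRCr8 (250 bases before to 50 after each gene start) matched 15 of 19 beta and 12 of 13 gamma members, the latter with 13 promoters because Pcdhga4 has more than 1. The motifs were picked after these sequences were seen, and their counts, on both strands, are descriptions. The letters GTGGCGCT stood in 13 of the 15 beta promoters and in 1.11% of all 33469 promoters of the table. The letters CGCTGTT stood in 10 of the 13 gamma promoters and in 1.98% of all promoters. Both motifs contain CGCT, which alone stood in 60.9% of all promoters, and they can overlap, as in Pcdhb3, the 1 beta promoter with CGCTGTT. GTGGCGCT stood in 0 of the 13 gamma promoters. In the members outside the clusters, 1 of 29 promoters held GTGGCGCT and 0 held CGCTGTT.

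Stretches before the gene start are given for the 4 highest and the 2 lowest beta members with a promoter in the table, 5′ to 3′ on the + strand of GRCr8, with GTGGCGCT in capitals where present.
Pcdhb3, chr18:29285593-29285644: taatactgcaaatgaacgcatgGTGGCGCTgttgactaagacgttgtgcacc
Pcdhb19, chr18:29478753-29478804: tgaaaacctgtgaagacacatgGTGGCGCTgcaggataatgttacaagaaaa
Pcdhb5, chr18:29302393-29302444: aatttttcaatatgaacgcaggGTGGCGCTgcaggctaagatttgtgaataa
Pcdhb8, chr18:29339247-29339298: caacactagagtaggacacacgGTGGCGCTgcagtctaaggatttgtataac
Pcdhb21, chr18:29492138-29492189: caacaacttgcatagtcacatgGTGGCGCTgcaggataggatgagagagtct
Pcdhb1, chr18:29187788-29187847: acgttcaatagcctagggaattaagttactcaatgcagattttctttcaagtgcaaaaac

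The same choice in the gamma array gives the stretches below, with CGCTGTT in capitals where present.
Pcdhga12, chr18:29843855-29843896: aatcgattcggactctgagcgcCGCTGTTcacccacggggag
Pcdhga7, chr18:29794198-29794248: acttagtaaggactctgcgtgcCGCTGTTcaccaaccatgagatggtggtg
Pcdhga3, chr18:29750308-29750358: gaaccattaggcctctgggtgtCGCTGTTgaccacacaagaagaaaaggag
Pcdhga10, chr18:29825807-29825857: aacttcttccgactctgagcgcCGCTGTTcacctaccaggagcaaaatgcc
Pcdhga1, chr18:29738579-29738638: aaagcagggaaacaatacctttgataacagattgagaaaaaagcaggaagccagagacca
Pcdhga9, chr18:29815776-29815826: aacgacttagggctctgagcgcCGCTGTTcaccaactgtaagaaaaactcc

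All 10 alpha members lay above 1 FPKM, with means of 1.83 to 8.45 FPKM. The highest was Pcdhac1, one of the C-type genes at the end of the arrays, with 8.21, 9.20 and 7.95 FPKM, followed by Pcdha9 with 7.87, 8.30 and 6.82. Pcdha8 had 5.60 ± 0.709 FPKM and Pcdha3 5.27 ± 0.234. The lowest were Pcdha6 at 2.06 ± 0.291 and Pcdha1 at 1.83 ± 0.272 FPKM. No alpha gene stood at 0, and Pcdhac1 held 17.8% to 20.2% of the summed level in each library.

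Of the 19 beta members, 16 lay above 1 FPKM. Pcdhb3 was the highest, with 5.01, 5.42 and 5.39 FPKM, followed by Pcdhb17 at 3.84 ± 0.262, Pcdhb19 at 3.50 ± 0.326 and Pcdhb22 at 2.79 ± 0.300. The 3 members that did not pass were Pcdhb14 (0.873 ± 0.0503 FPKM), Pcdhb21 (0.687 ± 0.0802) and Pcdhb1, which was listed at 0 in all libraries. Pcdhb13 passed at 1.38 ± 0.0896 FPKM, but failed when library 3 was left out (limma, Benjamini-Hochberg adjusted p = 0.0543). The beta promoters without GTGGCGCT were those of Pcdhb1 and of Pcdhb15, and Pcdhb15 had 2.25 ± 0.216 FPKM, a level within the range of the others. Pcdhb21 and Pcdhb14 held the motif and were below 1 FPKM.

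All 13 gamma members lay above 1 FPKM, and their levels spread more widely, with means of 1.94 to 30.0 FPKM. Pcdhga12 had 29.26, 31.14 and 29.55 FPKM, Pcdhgb7 16.31, 19.23 and 19.14, Pcdhga7 11.24, 12.44 and 12.94, and Pcdhga3 9.24, 7.79 and 9.85. The values of Pcdhga12, Pcdhgb7 and Pcdhga7 did not overlap, and this order held in each library. The lowest were Pcdhga1 at 2.47 ± 0.621 and Pcdhga9 at 1.94 ± 0.380 FPKM. Of the 13 gamma genes found by the rule, none of them C-type, Pcdhga12 held 27.0% to 30.1% of the summed level of 105 ± 3.49 FPKM. In the RefSeq order of the 13 genes it stands last of the A and B types, next to Pcdhgb8, which had 4.68 ± 0.624 FPKM. Of the 12 members with a promoter in the table, Pcdhga1 and Pcdhga4 were those without CGCTGTT, and they had 2.47 and 2.50 FPKM. Pcdhga9, the lowest gamma member at 1.94 FPKM, held the motif. No promoter of Pcdhgb7 was examined.

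Levels of single array genes are uncertain. In RefSeq's models 11 of the 13 gamma members end at the same base, that of the shared constant exons. Whether the gene models behind the authors' values held those exons, and how reads in them or in near-identical beta exons were assigned, is not given in the sources used here. A level in whole cultures does not show how many cells use a given promoter.

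Of the 6 Fat and Dachsous genes, 4 (66.7%) lay above 1 FPKM, against 63.7% of all entries tested and 42.6% of the whole table. Dchs1, which encodes the ligand of Fat4, had 39.30, 25.84 and 37.48 FPKM in libraries 1, 2 and 3. Fat4, its receptor, had 18.68, 9.29 and 19.38 FPKM, Fat1 16.84, 8.65 and 17.03, and Fat3 11.99, 4.97 and 11.82. All 4 genes were lowest in library 2, while libraries 1 and 3 lay close together. Dchs1 exceeded Fat4 within each library, by 2.24-fold (limma, Benjamini-Hochberg adjusted p = 1.95e-05, 3 of 3 libraries). Fat4 and Fat1 were not called different (log2 ratio 0.15 with a 95% interval of -0.10 to 0.39; limma, adjusted p = 0.213), and Fat1 exceeded Fat3 by 1.51-fold (limma, Benjamini-Hochberg adjusted p = 8.20e-04, 3 of 3 libraries). Dchs2 had 0.263 ± 0.0896 FPKM, and Fat2, known from granule cells of the cerebellum, was listed at 0 in all libraries. Fjx1, the relative of the fly kinase four-jointed that modifies Fat and Dachsous, had 43.22, 47.29 and 42.61 FPKM and was not lowest in library 2.

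Library 2 differed from libraries 1 and 3 along the family. The log2 difference between library 2 and the mean of libraries 1 and 3 was -1.24 for Fat3, -1.03 for Fat4, -0.96 for Fat1, -0.85 for Pcdh15, -0.57 for Dchs1, -0.51 for Pcdhb2 and -0.50 for Pcdh19. These 7 of the 64 members with a mean of at least 1 FPKM lay at or below -0.5, as did 3.30% of all 11662 such entries. Library 2 was the lowest of the 3 in 35 of the 64 members (54.7%), against 21.5% of all such entries. The median difference was -0.13 for the members and 0.13 for all such entries. For type I and type II cadherins the medians were 0.03 and 0.11, and Cdh2, at 0.02, did not share the shift. The summed level of Fat and Dachsous genes was 87.1, 48.9 and 86.0 FPKM in libraries 1, 2 and 3.

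The sums of other gene lists were also unlike in library 2. The summed level of the 4 commissural axon genes was 245, 172 and 252 FPKM in libraries 1, 2 and 3, and that of the 6 radial glia and progenitor genes was 932, 1188 and 967 FPKM, so the first list was lowest and the other highest in library 2. The 4 neuronal genes summed to 1989, 2129 and 1917 FPKM, also highest in library 2. Of the commissural axon genes Boc was not lower there, with 15.03, 15.73 and 15.06 FPKM. By gene, the log2 difference was 0.17 for Tubb3, 0.23 for Stmn2, -0.02 for Dcx and -0.03 for Map2. The median of all entries with a mean of at least 1 FPKM was 0.13, so the neuronal list lay on both sides of it. The radial glia and progenitor genes ran from 0.05 for Slc1a3 to 0.45 for Fabp7, also on both sides. The part of these lists in the values of Fat, Dachsous and Pcdh15 was not tested. That genes with very long transcripts were lower in library 2 was known from earlier results of these data, and Fat genes are among the longest transcripts, so the values above are no independent sign of it. The part of transcript length in these values was not tested.

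**Figure D3:**
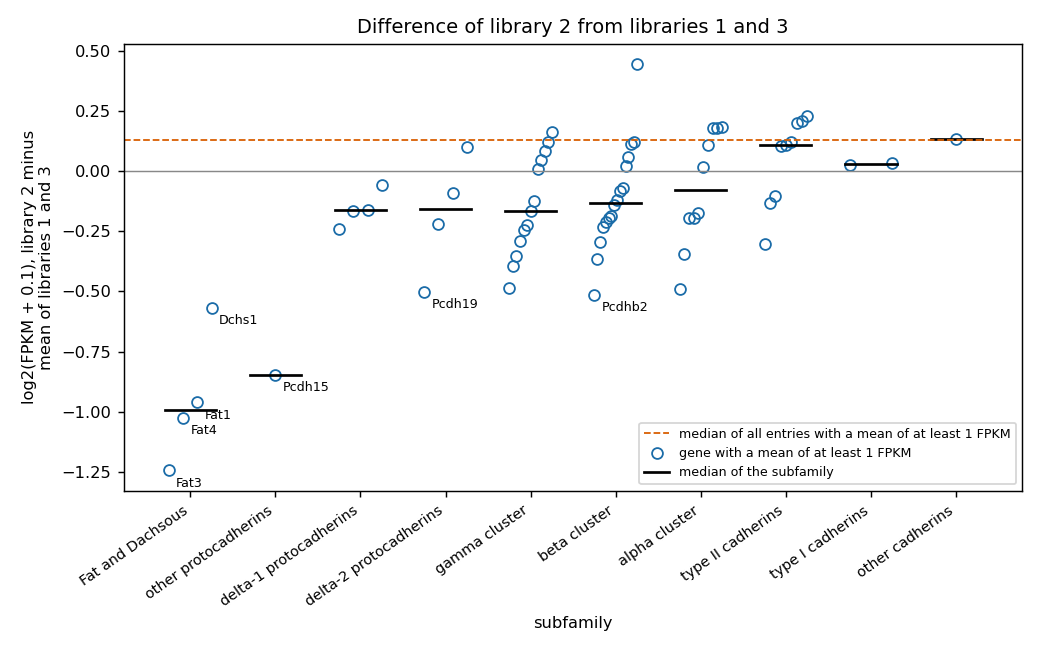
Log2(FPKM + 0.1) in library 2 minus the mean of libraries 1 and 3, for the 64 members with a mean of at least 1 FPKM (circles), with the median of each subfamily (black lines) and of all such table entries (dashed line, 0.13). The 4 Fat and Dachsous genes and Pcdh15 lie between -1.24 and -0.57, below the type I genes at 0.02 and 0.03.

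Genes known to work with cadherins were measured from a list of 23, of which 21 lay above 1 FPKM. Of the catenins and their relatives, Ctnnb1 (beta-catenin) had 170 ± 11.4 FPKM, Ctnna2 (alpha-N-catenin, the neuronal form) 59.8 ± 2.32, Arvcf 51.4 ± 2.43, Ctnnd1 (p120-catenin) 45.6 ± 1.15, Ctnnd2 34.0 ± 0.858, Ctnna1 25.2 ± 1.74, Pkp4 13.7 ± 0.459 and Jup (plakoglobin) 11.3 ± 0.362. Ctnna2 was higher than Ctnna1 in each library, with 57.73, 62.31 and 59.34 FPKM against 23.98, 27.17 and 24.35. Ctnna3, known from heart, had 1.34 ± 0.218 FPKM and failed when library 3 was left out (limma, Benjamini-Hochberg adjusted p = 0.157).

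Adam10, a protease that cuts N-cadherin and clustered protocadherins, had 30.3 ± 0.192 FPKM. Of the WAVE complex, which delta protocadherins can bind and which drives actin branching, Nckap1 had 70.9 ± 1.54, Abi2 56.4 ± 0.833, Cyfip2 49.5 ± 0.865, Abi1 20.7 ± 1.02 and Cyfip1 12.3 ± 0.378 FPKM. Of the chromatin factors that act on the clustered arrays, the cohesin subunit Rad21 had 70.1 ± 2.40, Ctcf 30.2 ± 1.28 and Smchd1, which silences array genes, 15.4 ± 0.304 FPKM. Dnmt3b, a methyltransferase of array promoters, had 0.99, 0.91 and 0.95 FPKM and did not pass. Ptk2b, a kinase bound by alpha and gamma protocadherins, had 0.443 ± 0.146 FPKM and did not pass, while Pdcd10, bound by the same proteins, had 30.0 ± 4.73.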

How the data were processed

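Stranded libraries of polyadenylated RNA were sequenced with paired reads of 50 bp, per the labels' protocols. FastQC, Trimmomatic 0.22, STAR and build rn6 are named in the submitters' processing notes. The authors deposited 1 table of FPKM values, 1 column per library; of the tool behind FPKM, its annotation and its use of strand nothing is stated in the labels. FPKM gives no absolute depth, so no counts or counting intervals were computed.

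The deposited values were taken without rescaling and put on a log2(FPKM + 0.1) scale. Levels were tested one-sided against 1 FPKM with limma 3.58.1 in R 4.3.3 (robust prior with a mean-variance trend) over the 17611 entries above 0 in at least 1 library, and pairs two-sided on within-library log2 ratios over 98 pairs, both with Benjamini-Hochberg adjustment at 0.05. Both tests were checked on simulated data. Alternatives were other pseudocounts (0.01 and 1), scalings, filters and priors, a 1.5-fold margin, and each library left out. The members and lists were chosen with earlier results of these data known. The rule names every member outside the arrays, the 4 highest and 2 lowest and the C-type genes of each array, and the partner list. Of the C-type genes only Pcdhac1 was found. Pcdhb13, Pcdhb14, Pcdhb15, Pcdhb2, Pcdhb5, Pcdhb8, Pcdhga4, Pcdhga10 and Pcdhgb8 were chosen after their values were seen. Marker lists of microglia, erythroid cells and fibroblasts were also measured, with 2 of 4, 1 of 3 and 1 of 7 genes above 1 FPKM. Symbols of 12 members stand in capitals in the table and are written in rat style. Protein lengths were not used here, and some list genes are not reported here, though counts over the partner list include them. Promoter sequences are from RefSeq, assembly GRCr8; the files use rn6. Figures were drawn with matplotlib 3.10.9.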

Additional observations from a re-analysis of the deposited data

How the results depend on the processing

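No paired analysis was possible because the series has 1 group. Of the 82 members, 61 to 63 lay above 1 FPKM under every alternative but 1. With libraries brought to 1 total of 1000000, most of which a few unnamed entries hold, 1 member (Cdh2) remained above 1, with 1 type I gene, 0 genes in each other subfamily and 9 partner genes; that scaling moves the median of all entries by -3.99 on the log2 scale. The count for protocadherins outside the arrays and delta groups rests on Pcdh15 alone and was 0 with a pseudocount of 1, with the common upper quartile, with the common sum of entries at or below 10000 FPKM and with the plain prior, and 0 to 1 with a library left out. Of the pairs, 85 to 89 of 98 differed across the alternatives that kept all pairs and the null of no difference, 78 when a 1.5-fold difference was tested, and 50 of 55 where both genes averaged at least 1 FPKM, which leaves fewer pairs. The log2 ratio of Cdh8 over Cdh11 ran between -0.010 and 0.059 with a library left out. That of Pcdh19 over Pcdh18 ran between -0.12 and 0.21, and both pairs were uncalled throughout. The scale of the pair p-values changed in these fits. For Cdh2 over Cdh4 limma's adjusted p was 1.83e-08 with all libraries. It was 3.51e-23, 4.14e-32 and 4.07e-04 without libraries 1, 2 and 3. Counts and calls from these fits are therefore not directly comparable with the main fit. The median difference of Fat and Dachsous genes in library 2 was -0.99, and -0.93 and -1.08 with a pseudocount of 1 and the common upper quartile.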

Other observations

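Relatives of these genes outside the naming rule were chosen after their values were seen. The Celsr genes encode cadherins with a membrane-spanning receptor domain that act in planar polarity. Celsr3 had 38.31, 25.15 and 38.26 FPKM in libraries 1, 2 and 3, Celsr2 28.66, 20.75 and 27.77, and Celsr1 4.84, 4.58 and 5.37. All 3 were lowest in library 2, as were 21.5% of all entries with a mean of at least 1 FPKM. The log2 difference between library 2 and the mean of libraries 1 and 3 was -0.60 for Celsr3, -0.44 for Celsr2 and -0.15 for Celsr1. For Fat1, Fat4 and Fat3 it was -0.96, -1.03 and -1.24, further from 0 than for any of these. Cdhr2, a cadherin-related gene known from intestinal microvilli, had 2.06 ± 0.0625 FPKM (SD, n = 3), and Cdhr1, known from photoreceptors, 0.433 ± 0.0569.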
